A study of Mus musculus with 2 samples.

Results

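Fibin, Timp4, Igfbp2, Luzp2, Cxcl14 and Scrg1 are 6 genes for proteins that are secreted or annotated as such. They are described here in single hippocampal cells of control (CT) mice and of mice with an inducible Opa1 knockout (Opa1 cKO). They were selected on their Opa1 cKO against CT levels in these same cells, so their differences between genotypes are a description and not a test. Each symbol had its row in both count tables, which hold 22587 gene symbols. OPA1 is a GTPase of the inner mitochondrial membrane that fuses mitochondria and shapes their cristae.

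Both groups were C57BL/6 mice with the Nestin-CreERT2 transgene and the ROSA26YFP reporter, given tamoxifen (TAM) and taken at 12 weeks of age, 4 weeks after TAM. Opa1 cKO mice also carried floxed Opa1, which CT mice lacked according to the protocol, although the strain field lists the floxed allele for both. YFP marks cells in which Cre opened the reporter, which does not show that Opa1 was deleted in that cell. The Nestin driver acts in neural stem cells (NSCs), and alleles that Cre recombined there are inherited by their progeny. Sorted YFP+ cells of 3 mice per genotype were pooled into 1 library each, so genotype and library cannot be told apart.

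The values are unique molecular identifiers (UMIs), each standing for 1 captured mRNA molecule, and levels are given in CPM, the usual scale on which the UMIs of all genes in a group of cells add up to the same total. Each molecule is counted once at its 3′ end, so CPM is not divided by gene length. Ranges in brackets are 95% intervals of counting error alone and leave out differences between mice. After filtering, 1790 CT cells with a median of 2555 UMIs and 3764 Opa1 cKO cells with a median of 3008 UMIs were kept, and 9 barcodes occurred in both. The class described most is the NSC pool-like class, 1374 CT and 2843 Opa1 cKO cells, named from 14 genes shared by quiescent NSCs and astrocytes, such as Aldoc, Slc1a3 and Apoe, which do not separate these types. None of the 14 was at 0, and together they had 95049.9 CPM in CT against 80858 CPM in the cells of Opa1 cKO. Markers of other cells were far lower in this class but also moved, with summed levels of 55.0 and 113 CPM for 6 microglia markers, 90.9 and 270.1 CPM for 5 oligodendrocyte precursor markers (2 of them at 0) and 281 and 9.14 CPM for 3 blood markers in CT and Opa1 cKO, and their part in the results was not tested. Opa1 itself had 18.6 CPM (14.5 to 23.5; 70 UMIs) in CT against 7.31 CPM (5.68 to 9.27; 68 UMIs) in the cells of Opa1 cKO cells of the class.

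Astrocytes and adult NSCs secrete proteins that shape the niche in which new hippocampal neurons arise. FIBIN is a secreted factor first described in fin bud formation. TIMP4 is a tissue inhibitor of metalloproteinases, the enzymes that cut the extracellular matrix. IGFBP2 binds insulin-like growth factors and alters their access to receptors. CXCL14 is a chemokine, LUZP2 is a leucine zipper protein of the nervous system, and SCRG1 is a small cysteine-rich protein first found through its response to scrapie. In the integrated stress response (ISR), stressed cells slow translation and raise genes for amino acid supply through the transcription factor ATF4.

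On mm10 (GRCm38, GENCODE M21), Fibin (ENSMUSG00000074971) lies at chr2:110360917-110363183 on the minus strand. Timp4 (ENSMUSG00000030317) lies at chr6:115241892-115252205 on the minus strand, and Igfbp2 (ENSMUSG00000039323) lies at chr1:72824503-72852474 on the plus strand. Luzp2 (ENSMUSG00000063297) lies at chr7:54835498-55268885 on the plus strand, Cxcl14 (ENSMUSG00000021508) lies at chr13:56288643-56296551 on the minus strand, and Scrg1 (ENSMUSG00000031610) lies at chr8:57455923-57477585 on the plus strand. Exons of Timp4 overlap exons of Syn2 on the opposite strand, and whether counting used strand is not given in the sources used here, so reads of these genes may not be told apart.

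RefSeq promoters (GRCm38.p6) covered 5 of the 6 genes and were read over the 250 bases before the RefSeq gene start, on both strands. The core of the ATF4 element, TGATGNAA, was in none of these 5, and 3.45% of 32851 promoters held it. For Fibin, only 60 of the 250 bases read lie outside the GENCODE gene, and the others lie within it. The core of the antioxidant element, TGACNNNGC, held by 10.2% of promoters and chosen after the data were seen, was found 1 time, in Timp4, 207 bases before the start. A match is a description of the letters and not a site in use. The sequences of 3 promoters are shown 5′ to 3′ on the strand of the gene, because Fibin had the highest ratio of the 6, Timp4 the match, in capitals, and Cxcl14 the highest level. They are chr2:110363184-110363243, chr6:115252206-115252455 and chr13:56296552-56296801, all on the minus strand, and for Fibin only the 60 bases outside the GENCODE gene are printed.
Fibin: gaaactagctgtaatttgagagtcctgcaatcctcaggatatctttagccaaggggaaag
Timp4: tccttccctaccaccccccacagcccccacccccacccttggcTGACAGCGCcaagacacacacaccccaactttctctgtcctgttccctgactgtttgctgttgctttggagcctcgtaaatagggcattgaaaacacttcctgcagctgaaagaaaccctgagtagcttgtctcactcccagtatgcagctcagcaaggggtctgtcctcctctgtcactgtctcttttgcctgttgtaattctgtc
Cxcl14: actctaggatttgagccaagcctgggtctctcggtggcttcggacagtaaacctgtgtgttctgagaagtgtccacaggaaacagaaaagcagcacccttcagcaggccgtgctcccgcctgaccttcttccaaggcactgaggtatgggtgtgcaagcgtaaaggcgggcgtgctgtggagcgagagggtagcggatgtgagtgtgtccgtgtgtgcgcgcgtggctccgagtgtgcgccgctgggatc

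In NSC pool-like cells, Fibin was nearly absent from CT and present in Opa1 cKO. Timp4, Igfbp2 and Luzp2 were modestly higher in Opa1 cKO, and Cxcl14 and Scrg1 were lower. Among 8939 genes with at least 100 UMIs, 4.71% differed by at least 2-fold in either direction, and of the 6 genes 1 did, Fibin. The median log2 ratio of all these genes was 0.07.

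Fibin had 2.13 CPM (0.918 to 4.19; 8 UMIs) in CT, in 8 different cells, against 108 CPM (102 to 115; 1007 UMIs) in the cells of Opa1 cKO. Its log2 ratio was 5.67 (4.69 to 6.89), and 9 of the 8939 genes had a higher one. A Fibin UMI was found in 0.582% (0.252 to 1.14) of the CT and in 21.7% (20.2 to 23.2) of the Opa1 cKO cells. Oligodendrocyte-like cells, taken as the measure of background, had one in 1.35% (CT) and 3.96% (Opa1 cKO), at median depths of 3767.5 and 3914 UMIs against 2490.5 and 2947 in the NSC pool-like class. With each cell thinned to 1500 UMIs, the NSC pool-like shares were 0.340% and 12.3%. Of the Opa1 cKO cells 2227 had no Fibin UMI, 372 had 1, 147 had 2 and 97 had 3 or more, up to 6.

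Timp4 had 675 CPM (649 to 702) in CT against 806 CPM (788 to 825) in the cells of Opa1 cKO, or a log2 ratio of 0.26 (0.19 to 0.32). Igfbp2 had 382 CPM (363 to 402) and 488 CPM (474 to 502), or a log2 ratio of 0.35 (0.27 to 0.44). Luzp2 had 603 CPM (579 to 629) and 728 CPM (711 to 745), or a log2 ratio of 0.27 (0.20 to 0.34). For these 3 genes the counting intervals of the libraries did not overlap, but a difference of this size has no replicate check. Ratios this high were common, as 3158 of the 8939 genes were above Timp4, 3047 above Luzp2 and 2488 above Igfbp2. Cells with a UMI made up 75.1% and 83.3% for Timp4, 34.1% and 40.03% for Igfbp2 and 63.2% and 70.5% for Luzp2. In oligodendrocyte-like cells the same shares were 18.9% and 22.8% for Timp4, 1.35% and 13.9% for Igfbp2 and 18.9% and 29.7% for Luzp2.

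Cxcl14 had the highest level of the 6 in both libraries, 1677 CPM (1636 to 1719) in CT against 1224 CPM (1202 to 1247) in the cells of Opa1 cKO. Its log2 ratio was -0.45 (-0.50 to -0.41), with a UMI in 94.5% and 90.1% of cells. Scrg1 had 695 CPM (669 to 722) and 458 CPM (444 to 472), or a log2 ratio of -0.60 (-0.67 to -0.53), with a UMI in 74.5% and 65.5% of cells. Oligodendrocyte-like cells had a Cxcl14 UMI in 27.0% and 22.8% and a Scrg1 UMI in 12.2% and 21.8% of cells. From highest to lowest CPM, CT ran Cxcl14, Scrg1, Timp4, Luzp2, Igfbp2 and Fibin, and the intervals of Scrg1 and Timp4 overlapped. Opa1 cKO ran Cxcl14, Timp4, Luzp2, Igfbp2, Scrg1 and Fibin, with Scrg1 moved from the second to the fifth place and no overlap between neighbours.

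The genes differed in how their molecules were spread over cells. In CT the 10% of NSC pool-like cells with the most UMIs of a gene held 24.2% of the Cxcl14 molecules, 30.8% for Timp4, 32.1% for Scrg1, 39.8% for Luzp2 and 57.9% for Igfbp2. The 10% of these cells with the most UMIs of all genes together held 18.7% of all UMIs. Among these 5 genes Cxcl14 also had the highest and Igfbp2 the lowest CT level. The part of level in these shares was not tested. Igfbp2 was the most uneven of these 5 genes, and in Opa1 cKO it reached 42 UMIs in 1 cell while 1705 of 2843 cells had none.

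**Figure D1:**
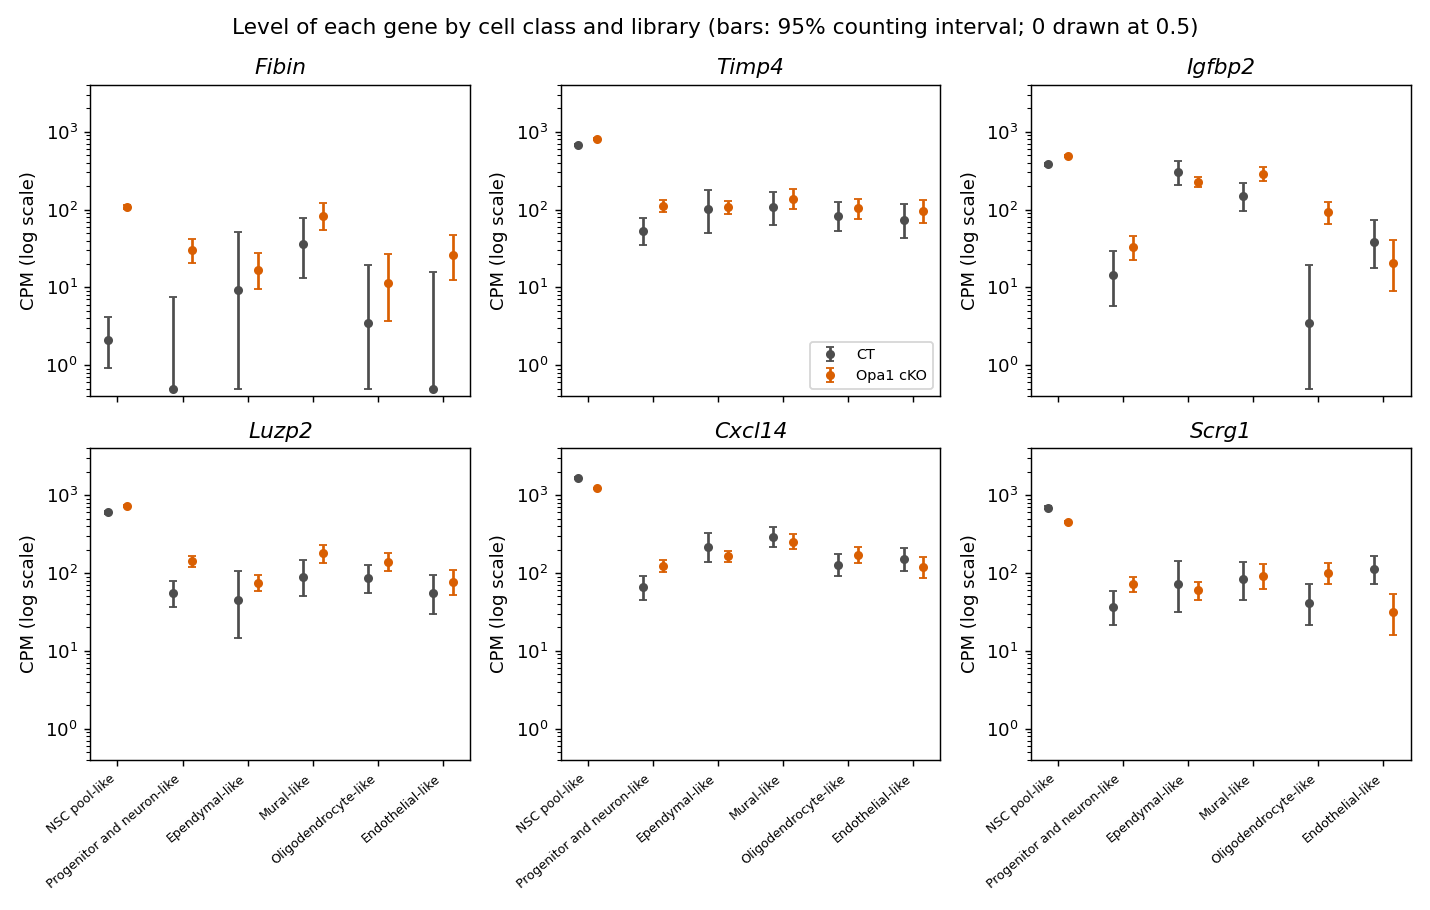
Level of each gene in CPM (log scale) by cell class in the CT and Opa1 cKO libraries, with bars for the 95% counting interval. Timp4, Luzp2, Cxcl14 and Scrg1 are highest in NSC pool-like cells, Igfbp2 is also seen in ependymal-like and mural-like cells, and Fibin reaches 108 CPM in NSC pool-like and 83.4 CPM in mural-like Opa1 cKO cells.

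Outside the NSC pool-like class, Timp4, Luzp2, Cxcl14 and Scrg1 had between 3.89% and 24.5% of their NSC pool-like level in the same library, as the plot of levels by class shows. The NSC pool markers, read the same way, had class medians between 9.99% and 37.0%, so low levels of NSC transcripts were found in all classes. Igfbp2 stood out in ependymal-like cells, which line the ventricles, with 301 CPM (207 to 423) in 39 CT and 227 CPM (197 to 259) in 245 Opa1 cKO cells. Mural-like cells were named from markers of the pericytes and smooth muscle of vessels. Dcn and Aspn, which are not on that list, were also among their leading genes. The type of the mural-like cells that carried Igfbp2 or Fibin was not tested. In this class Igfbp2 had 149 CPM (96.5 to 220.2) and 289 CPM (234 to 352). Few mural-like cells carried it, 4 of 95 in CT, with 13 of 25 UMIs in 1 cell, and 15 of 167 in Opa1 cKO, against 35.9% and 40.8% of ependymal-like cells. Fibin was also seen in mural-like cells, with 35.8 CPM (13.1 to 77.9; 6 UMIs) in CT, all in 1 of 95 cells, and 83.4 CPM (55.4 to 120.5; 28 UMIs) in Opa1 cKO.

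For some of the genes the Opa1 cKO library was also the higher in further classes. Progenitor and neuron-like cells had no Fibin UMI in 153 CT cells. At 3 counts this allows up to 1.96% of cells with a UMI and does not limit the cells that express the gene. In Opa1 cKO the class had 29.9 CPM (20.5 to 42.2; 32 UMIs) of Fibin. By point value that is at least 4.89-fold higher against a floor of 3 counts over the group. The counting interval of the log2 ratio starts lower, at 1.91. Endothelial-like cells had no Fibin UMI in CT against 10 in the cells of Opa1 cKO. On the same floor that is at least 2.01-fold higher by point value, with a log2 ratio interval that starts at 0.44. In progenitor and neuron-like cells Timp4 had a log2 ratio of 1.07 (0.45 to 1.74), Luzp2 of 1.36 (0.76 to 2.01) and Cxcl14 of 0.91 (0.34 to 1.51), in a class where 14.3% of genes were past 2-fold in either direction. The NSC pool markers moved with them in this class, from a median of 11.1% of their NSC pool-like level in the CT library to 32.7% in that of Opa1 cKO. The make-up of the class also depended on the clustering: it held 153 CT and 319 Opa1 cKO cells here, but 139 to 140 and 168 to 172 with resolution 0.4, with log-normalization or with all variable genes. The part of either in these ratios was not tested. Igfbp2 had 3.47 CPM (0.0879 to 19.3; 1 UMI) in 74 CT and 91.8 CPM (65.6 to 125; 40 UMIs) in 101 Opa1 cKO oligodendrocyte-like cells, with a ratio interval on the log2 scale of 2.16 to 10.06. As a share of its NSC pool-like level, Igfbp2 was at 0.909% and 18.8% there. The NSC pool markers had medians of 10.5% (CT) and 18.9% (Opa1 cKO) in the same cells. The part of free RNA in these low values was not tested.

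The NSC pool-like class was made of 3 clusters, and the 6 genes were left out of the genes used to form them. Cluster 0 held 48 CT and 1542 Opa1 cKO cells, cluster 1 804 and 753, and cluster 2 522 and 548. Hmox1, Gdf15 and Gfap were among the leading genes of cluster 0, Slc7a10 and Cldn10 of cluster 1, and Slitrk2 and Spry2 of cluster 2. Cluster 0 came almost wholly from the Opa1 cKO library and may be that library rather than a cell type. Fibin had no UMI in its CT cells and 770 in its Opa1 cKO cells. By point value that is at least 6.07-fold higher against a floor of 3 counts over the group. The counting interval of the log2 ratio starts lower, at 2.30. Of the others in cluster 0, Igfbp2 had a log2 ratio of 2.68 (1.70 to 3.89), Luzp2 of 1.73 (1.21 to 2.31) and Timp4 of 0.85 (0.46 to 1.27). Cxcl14 had 0.36 (0.07 to 0.66), opposite in direction to the whole class, and Scrg1 -0.04 (-0.46 to 0.42). The median log2 ratio of all genes in cluster 0 was 0.21, which lies within the intervals of Cxcl14 and Scrg1. Against so few CT cells 24% of 6392 genes were past 2-fold in either direction, as were 3 of the 6 members, Fibin, Igfbp2 and Luzp2.

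In cluster 1, which both libraries filled, Igfbp2 had 396 CPM (369.6 to 423) in CT against 659 CPM (626 to 694) in the cells of Opa1 cKO, or a log2 ratio of 0.74 (0.61 to 0.86). Cxcl14 at -0.04 (-0.10 to 0.03), Luzp2 at 0.01 (-0.10 to 0.12) and Scrg1 at -0.07 (-0.17 to 0.03) had intervals that include 0 there. Of 5534 genes 0.994% were past 2-fold, and none of the 5 members with at least 100 UMIs was. Fibin, under that minimum, had 6 UMIs in CT against 51 in the cells of Opa1 cKO, or a log2 ratio of 3.05 (1.83 to 4.56). In cluster 2, Cxcl14 had 1667 CPM (1601 to 1734) in CT against 1219 CPM (1169 to 1271) in the cells of Opa1 cKO, and Scrg1 668 CPM (627 to 711) and 448 CPM (418 to 480.3). Fibin had 2 and 186 UMIs in cluster 2, or a log2 ratio of 6.24 (4.36 to 9.29), where 4.28% of genes were past 2-fold in either direction.

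Opa1 cKO cells differed in the share of their UMIs from the 13 mitochondrially encoded genes (mt- share). NSC pool-like cells under 1% are called mt-low (1660 cells) and those of at least 2% mt-normal (907 cells), and 318 Opa1 cKO cells lay within 0.25 percentage points of the 1% limit. In CT, 3 cells were mt-low and 1359 mt-normal. Opa1 had 6.35 CPM (35 UMIs) in mt-low and 10.8 CPM (32 UMIs) in mt-normal Opa1 cKO cells, against 18.6 CPM (70 UMIs) in CT. The 30 ISR genes made up 1.18% of UMIs in Opa1 cKO cells with an mt- share under 0.25% and 0.306% in those of at least 4%, against 0.268% in CT cells of at least 4%.

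**Figure D2:**
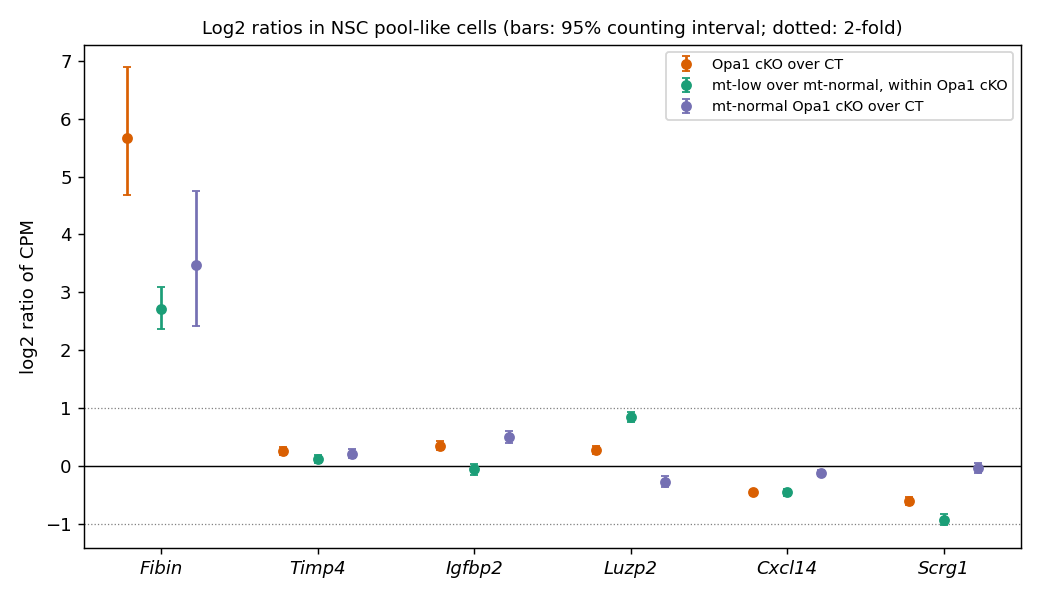
Log2 ratio of CPM of each gene in NSC pool-like cells for Opa1 cKO over CT, mt-low over mt-normal Opa1 cKO cells, and mt-normal Opa1 cKO cells over CT, with bars for the 95% counting interval. Fibin is above 2-fold in all 3, at 5.67, 2.71 and 3.48, while Scrg1 is at -0.60, -0.93 and -0.03.

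Fibin and Luzp2 were higher in mt-low than in mt-normal Opa1 cKO cells, Scrg1 and Cxcl14 were lower, and Timp4 and Igfbp2 were close in both. The mix of clusters also differed with mt- share, as given below by range. Of 7658 genes 3.62% were past 2-fold in either direction, and of the 6 members 1 was, Fibin. The 7658 genes include mt- genes, whose share made the groups. The median log2 ratio of all genes was 0.23, against which the ratios are to be read. Fibin had 155 CPM (145 to 166) in mt-low and 23.7 CPM (18.5 to 29.9) in mt-normal cells, or a log2 ratio of 2.71 (2.36 to 3.09). Luzp2 had 891 CPM (866 to 916) and 498 CPM (473 to 524), or a log2 ratio of 0.84 (0.75 to 0.92). Scrg1 had 358 CPM (342 to 374) and 681 CPM (651 to 711), or a log2 ratio of -0.93 (-1.02 to -0.84), and 77 genes had a lower one. Cxcl14 had 1119 CPM (1091 to 1147) and 1537 CPM (1493 to 1583), or a log2 ratio of -0.46 (-0.51 to -0.40). Timp4 had a log2 ratio of 0.12 (0.05 to 0.19), which turns to -0.11 when the median of all genes is taken off, and Igfbp2 had -0.06 (-0.15 to 0.03).

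Set against CT, the mt-normal Opa1 cKO cells were near CT for Scrg1 and Cxcl14 and not for Igfbp2 and Fibin. Scrg1 had 681 CPM in these cells and 695 CPM in CT, or a log2 ratio of -0.03 (-0.11 to 0.05), and Cxcl14 had a log2 ratio of -0.13 (-0.18 to -0.07). Luzp2, higher over the whole class, was lower than CT here, at -0.28 (-0.37 to -0.18). Igfbp2 had a log2 ratio of 0.49 (0.39 to 0.60) and Timp4 of 0.21 (0.13 to 0.29). Fibin had 70 UMIs against 8, or a log2 ratio of 3.48 (2.42 to 4.74). Its 23.7 CPM in the mt-normal cells was within the span of the other Opa1 cKO classes. These had 11.5 CPM (oligodendrocyte-like), 16.8 (ependymal-like), 25.9 (endothelial-like), 29.9 (progenitor and neuron-like) and 83.4 CPM (mural-like). The part of free RNA in the Fibin level of mt-normal cells was not tested. Of 6997 genes 1.59% were past 2-fold in either direction, and none of the 5 members with at least 100 UMIs was. Mt-low Opa1 cKO cells against the same CT cells, shared by these comparisons, had log2 ratios of 6.19 for Fibin, 0.33 for Timp4, 0.43 for Igfbp2, 0.56 for Luzp2, -0.58 for Cxcl14 and -0.96 for Scrg1, beside a median of 0.14 for all genes.

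**Figure D3:**
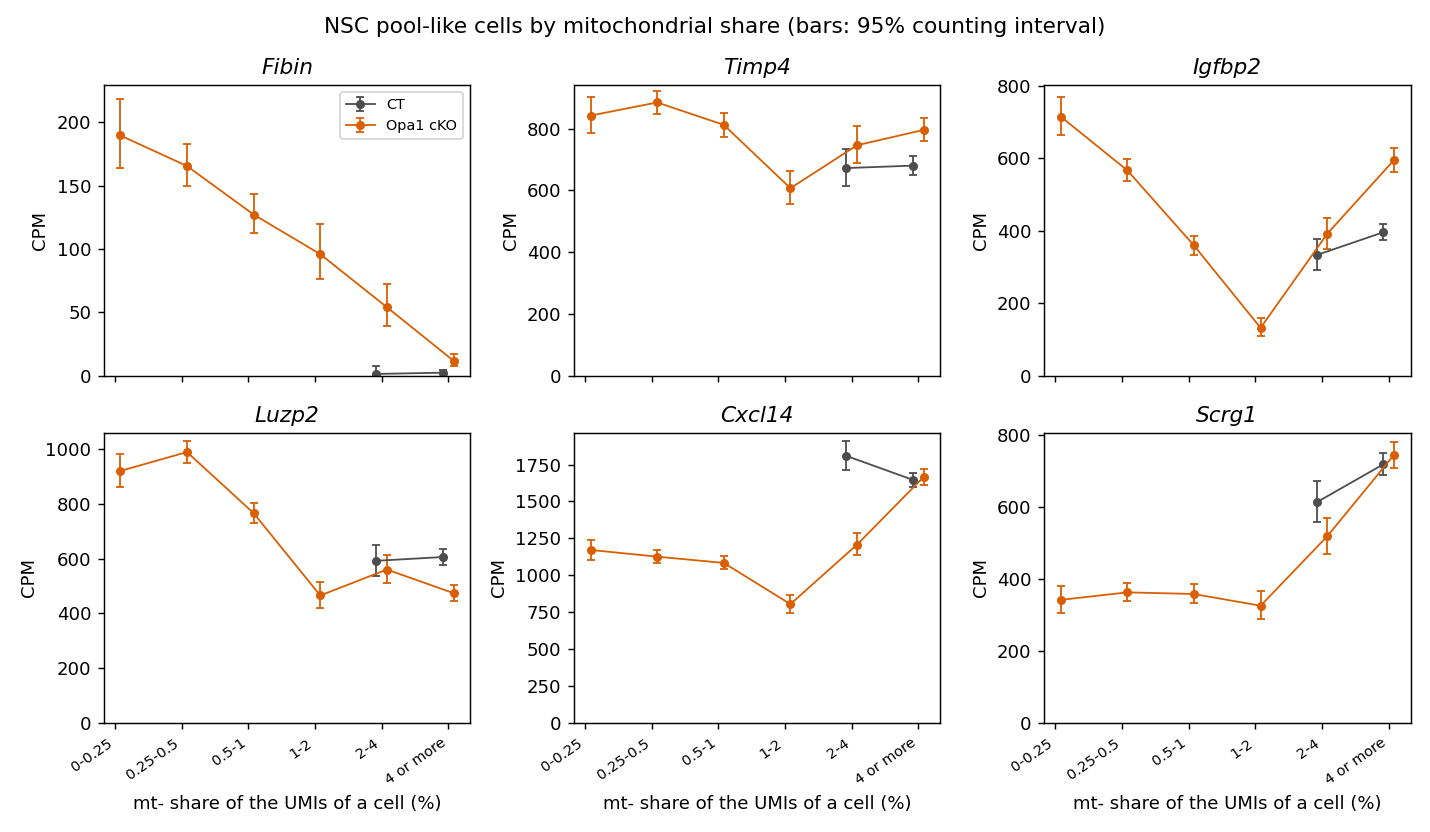
Level in CPM of each gene in NSC pool-like cells by range of mt- share, for the CT and Opa1 cKO libraries, with bars for the 95% counting interval. From the lowest to the highest range Fibin goes from 189.7 to 11.8 CPM and Scrg1 from 343 to 744 CPM, and Igfbp2 is lowest, at 132 CPM, between 1% and 2%.

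Over 6 ranges of mt- share the genes followed different courses in Opa1 cKO cells, as the plot of levels by mt- share shows. Fibin was lower in each further range, with 189.7 CPM (164 to 219) under 0.25%, then 166, 127, 96.0 and 54.1 CPM in the ranges up to 0.5%, 1%, 2% and 4%, and 11.8 CPM (7.62 to 17.4) from 4%. In this last range CT cells had 2.34 CPM (0.941 to 4.82), below the Opa1 cKO interval. Oligodendrocyte-like cells, the measure of background, had 3.47 CPM of Fibin in CT and 11.5 CPM in Opa1 cKO. Scrg1 had between 326 and 363 CPM in the 4 ranges under 2%, then 519 CPM (471 to 570.2) and, from 4%, 744 CPM (708 to 782), where CT had 718 CPM (688 to 749). Cxcl14 had 1172 CPM under 0.25%, 806 CPM between 1% and 2% and 1666 CPM (1612 to 1722) from 4%, where CT had 1646 CPM (1600.3 to 1693). So Scrg1 and Cxcl14 overlapped CT in the highest range. Between 2% and 4% Cxcl14 did not, with 1208 CPM (1135 to 1285) against 1808 CPM (1713 to 1908) in CT, and CT had 613 CPM (558 to 672) of Scrg1. Luzp2 was highest between 0.25% and 0.5%, with 987 CPM (948 to 1028), and from 4% it had 474 CPM (445 to 504), below the 605 CPM (578 to 634) of CT. Timp4 lay between 607 and 885 CPM. The mix of clusters changed along these ranges. Cluster 0 held 69.7% of the cells under 0.25% and 8.99% from 4%, and cluster 1 7.5% and 72.1%. In the same ranges Cxcl14 had 1162 and 1073 CPM in cluster 0. It had 1429 (24 cells) and 1796 CPM in cluster 1, and 1147 and 1449 CPM in cluster 2. In cluster 0 Fibin had 186 and 33.9 CPM and Scrg1 318 and 576 CPM. The part of the cluster mix in these courses was not tested.

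Igfbp2 had its minimum in the middle. It had 715 CPM (664 to 769) under 0.25%, 567 and 359 CPM in the next ranges, 132 CPM (108 to 159) between 1% and 2%, and then 392 and 595 CPM. The share of cells with a UMI was 53.4% in the lowest, 15.6% in the middle and 51.5% in the highest range, at median depths of 2860.5, 2746 and 3075 UMIs. Between 1% and 2% it had 88.5 CPM in cluster 0, 359.7 CPM in cluster 1 (27 cells) and 226 CPM in cluster 2 (44 cells). Under 0.25% and from 4%, Igfbp2 had 718 and 271 CPM in cluster 0. It had 637 (24 cells) and 658 CPM in cluster 1, and 724 and 502 CPM in cluster 2. The part of the cluster mix in the Igfbp2 course was not tested. Set against all other Opa1 cKO cells of the class, a comparison added after the data were seen, the 276 cells of that range had an Igfbp2 log2 ratio of -1.99 (-2.27 to -1.71), and 6 of 7959 genes had a lower one. There 1.92% of genes were past 2-fold in either direction and 1 of the 6 members, Igfbp2, was, the other 5 lying between -0.70 and -0.19. The range is the one already seen to hold the lowest Igfbp2 level. The Igfbp2 ratio, its rank and its place past 2-fold are thus partly set by the choice of range and are a description.

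Astrocyte and NSC markers were read in the same cells. S100b, an astrocyte gene named after its value was seen, had 284 CPM in the middle range and 604 CPM in the other cells. The 9 activated NSC markers summed to 892 CPM in the middle range and to between 523 and 844 CPM in the others, and the 14 NSC pool markers to 71435 CPM and to between 72347 and 100588 CPM. Their part in the Igfbp2 level was not tested.

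**Figure D4:**
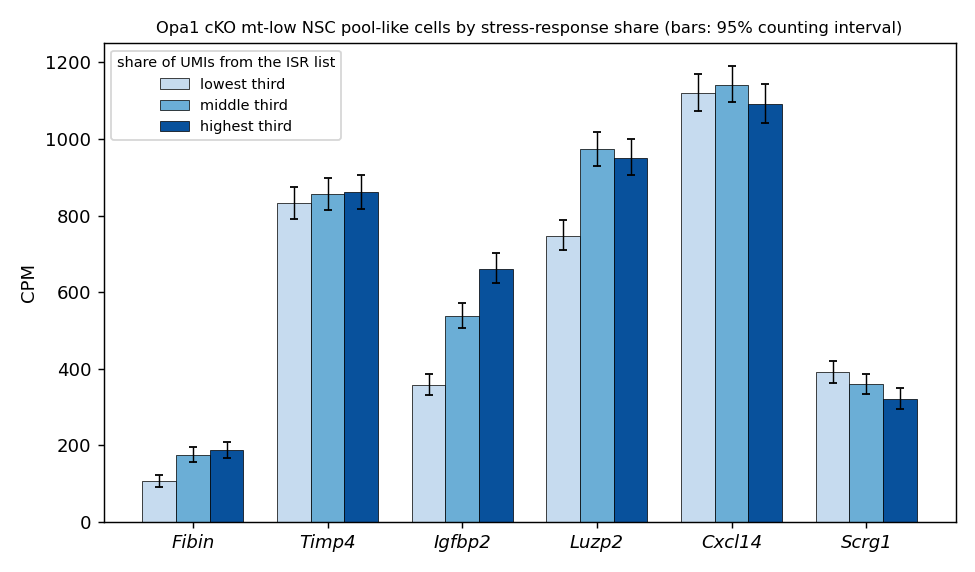
Level in CPM of each gene in mt-low Opa1 cKO NSC pool-like cells, split into 3 ranges of near equal size by the share of UMIs from the 30 ISR genes, with bars for the 95% counting interval. Igfbp2 has 358, 537 and 661 CPM from the lowest to the highest range.

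Among mt-low cells the ISR share had a median of 0.815% in the lowest range (553 cells) and 1.40% in the highest (554 cells). Igfbp2 had 358 CPM (331 to 386) in the lowest, 537 CPM (505 to 570.1) in the middle and 661 CPM (623 to 701) in the highest range. Its log2 ratio of highest over lowest was 0.89 (0.75 to 1.03), and 18 of 5152 genes had a higher one. Fibin had 105 CPM (91.1 to 121), 175 CPM (157 to 195) and 187 CPM (167 to 209), or a log2 ratio of 0.83 (0.57 to 1.09). Luzp2 had a log2 ratio of 0.35 (0.24 to 0.45) and Scrg1 of -0.29 (-0.45 to -0.12), while Timp4 at 0.05 (-0.06 to 0.15) and Cxcl14 at -0.04 (-0.13 to 0.05) were near 0. Of all genes 0.233% were past 2-fold in either direction and none of the 6 members was. The 5152 genes include ISR genes, whose share made the ranges, so the rank and this share are partly set by the split. The median mt- share was 0.508% in the lowest and 0.363% in the highest range and the median depth 2954 and 2660 UMIs, whose part in these differences was not tested.

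Mt-low cells with a Fibin UMI were also set beside those without, a split added after the data were seen. The 513 cells with a UMI were deeper, with a median of 3816 UMIs against 2639 in the 1147 others. Igfbp2 had 594 CPM (561 to 628) in the former and 466 CPM (443 to 489.6) in the latter. Luzp2 had 991 CPM (949 to 1034) and 829 CPM (798 to 859.7), and Scrg1 316 CPM (293 to 341) and 384 CPM (363 to 405). With each cell thinned to 1500 UMIs, Igfbp2 was found in 39.7% and 29.2% of cells.

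Cells sorted as YFP+ in which no YFP UMI was counted gave a set apart from the cells above. After clustering without the YFP filter there were 1380 CT and 1497 Opa1 cKO NSC pool-like cells of this kind. A cluster of 834 CT and 267 Opa1 cKO cells of that clustering, high in 12 of the 14 NSC pool markers but led by microglia genes such as C1qc, was left unnamed, so its cells, mostly CT, are not in this set. Fibin had 4 UMIs in CT against 236 in the cells of Opa1 cKO, or a log2 ratio of 5.73 (4.35 to 7.62). Igfbp2 had 0.55 (0.43 to 0.66), Luzp2 0.33 (0.23 to 0.42) and Timp4 0.29 (0.21 to 0.37) on the same scale. Scrg1 had -0.31 (-0.40 to -0.22) and Cxcl14 -0.27 (-0.32 to -0.21). Of 7124 genes 2.01% were past 2-fold in either direction, and 1 of the 6 members, Fibin, was. These cells come from the same 2 libraries and are no replicate of them. Among Opa1 cKO cells with YFP, those with 2 or more UMIs of it over those with 1 had a log2 ratio of 0.63 (0.43 to 0.84) for Fibin and 0.31 (0.24 to 0.39) for Luzp2, and the other 4 lay between -0.18 and 0.13.

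Genes of the members' families were read from lists that hold no member, in the Opa1 cKO over CT comparison of NSC pool-like cells. Of 16 genes of the insulin-like growth factor axis, 5 had at least 100 UMIs and 1 was past 2-fold, upwards, with a median log2 ratio of -0.04. That was Igfbp4, a further binding protein, with 13 UMIs in CT against 377 in the cells of Opa1 cKO, or a log2 ratio of 3.55 (2.76 to 4.47). Igfbp5 had 0.03 (-0.20 to 0.26), the receptor Igf1r -0.29 (-0.58 to 0.00) and Igfbp7 -0.40 (-0.97 to 0.19). Of 19 genes of the metalloproteinases and their inhibitors, 9 had enough UMIs, 0 were past 2-fold upwards and 2 downwards, with a median of -0.56. The proteases Adamts9 at -1.18 (-1.73 to -0.63) and Mmp15 at -1.13 (-1.68 to -0.58) were the lowest, and Mmp11 at 0.47 (-0.10 to 1.08) was the highest. The inhibitor Timp3, named after its value was seen, had -0.60 (-0.71 to -0.48), opposite in direction to Timp4.

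Of 20 chemokines and receptors 3 had at least 100 UMIs. Cxcl10, a chemokine induced by interferon, had 1 UMI in CT against 130 in the cells of Opa1 cKO, or a log2 ratio of 5.72 (3.21 to 11.03), and Cxcl5 had -1.23 (-1.65 to -0.82). A further list held 50 genes for secreted and some membrane-bound proteins of astrocytes and NSCs. Of these 41 had enough UMIs, 2 were past 2-fold upwards and 4 downwards, with a median of -0.34 beside 0.07 for all genes. Upwards were the matrix protein Tnc at 1.10 (0.75 to 1.48) and the neurotrophin Bdnf at 1.10 (0.34 to 1.94). Downwards were the BMP antagonist Chrdl1 at -1.39 (-1.79 to -0.98) and the WNT antagonist Sfrp1 at -1.31 (-1.89 to -0.72), and, named after their values were seen, Vcan and Vegfa. Of the 30 ISR genes 28 had enough UMIs, 24 were past 2-fold upwards and 0 downwards, with a median of 1.89. Each of these shares is to be read against 2.72% of all genes upwards and 1.99% downwards.

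Over 17 groups of cells, made of each class in each library with Opa1 cKO NSC pool-like cells split by mt- share, 7149 genes were ranked by the likeness of their log2(CPM + 10) to each member. Sdha, Nfu1 and Gdf15 were most like Fibin, with r = 0.94 each. Aldoc, Acsl6 and F3 were most like Timp4 (r = 0.99), Ppp1r3g, Fjx1 and Htra1 most like Cxcl14 (0.98 to 0.99), and Acsbg1, Baalc and Chst1 most like Luzp2 (0.98). Agt, Slc6a11 and Cldn10 were most like Scrg1 (0.97 to 0.98), and Adora2b, Serpine2 and Aqp4 most like Igfbp2 (0.91 to 0.95). Among the members r ran from 0.39 between Fibin and Scrg1 to 0.97 between Timp4 and Cxcl14. The groups share the 2 libraries and one split into classes, so these correlations are a description.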

How the data were processed

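Single YFP+ hippocampal cells were profiled with 10x 3′ chemistry in 1 library per genotype. The authors deposited a matrix of raw UMI counts per gene and barcode for each library. The submitters' processing notes name Cell Ranger 2.1.1 and mm10, and the matrix header gives software version 3.1.0. The libraries held 4634 (CT) and 6475 (Opa1 cKO) barcodes with 10799936 and 18662032 UMIs, and 36 barcodes occurred in both.

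As in the study's methods, barcodes were kept if they had above 600 but below 7500 genes, a mitochondrial share under 20% and 1 or more YFP UMIs. Before the YFP rule 4186 CT and 6121 Opa1 cKO barcodes passed, and that rule kept 42.8% and 61.5% of them. The study reports more cells of each genotype than were kept here, so its cells are not the same set. Both libraries were clustered together (R 4.3.3, Seurat 5.3.0, sctransform 0.4.2; 8 dimensions, resolution 0.2), leaving the 6 genes, mt- genes, YFP and ISR genes out of the clustering genes. Clusters were named from marker lists. No doublet caller was run, and leaving out the 5% of cells with most UMIs was an alternative. Counts were summed per library and class (Python 3.11.15, numpy 2.4.6, scipy 1.17.1, pandas 2.3.3, matplotlib 3.10.9).

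Genotypes could not be tested against each other, having 1 library each. CPM carry exact Poisson intervals, shares of cells Clopper-Pearson intervals, and log2 ratios the exact interval of the binomial split of the counts, checked on simulated data. Ratios were compared with all genes of at least 100 UMIs over both groups. Named genes are the 6, Opa1, the 3 genes most like each, and of each family list the 2 highest and 2 lowest ratios, with exceptions said in place. The 6 genes and the lists were chosen with earlier results of these data known. Alternatives covered the YFP filter, clustering, resolution, scaling, weighting, depth, mt- limits and UMI minimum.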

Additional observations from a re-analysis of the deposited data

Results flagged for a closer look

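For 2 of the genes the ratio of Opa1 cKO over CT had the opposite direction in another class, with counting intervals that do not include 0, and the difference between classes was not tested. Scrg1 had a log2 ratio of 1.24 (0.30 to 2.30) in oligodendrocyte-like cells, where 12 CT and 43 Opa1 cKO UMIs were counted, against -0.60 in NSC pool-like cells. In oligodendrocyte-like cells Scrg1 was at 5.99% (CT) and 21.6% (Opa1 cKO) of its NSC pool-like level. The NSC pool markers had medians of 10.5% and 18.9% there. In progenitor and neuron-like cells Scrg1 had 0.97 (0.22 to 1.80), with 18 and 77 UMIs. Cxcl14 had 0.91 (0.34 to 1.51) in progenitor and neuron-like cells, with 32 and 131 UMIs, against -0.45 in NSC pool-like cells. The NSC pool markers were also higher in the Opa1 cKO cells of that class, at a median of 11.1% (CT) and 32.7% (Opa1 cKO) of their NSC pool-like level, and 3 other clusterings put 168 to 172 in place of 319 Opa1 cKO cells in it. The levels in these classes are low beside the NSC pool-like class, and the part of free RNA and of the make-up of the class was not tested.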

How the results depend on the processing

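No paired analysis was possible because each genotype had 1 pooled library and the labels give no shared replicate numbers, and for the same reason no replicate could be left out. Over the alternatives run, the log2 ratio of Opa1 cKO over CT in NSC pool-like cells kept its direction for all 6 genes, with 5.47 to 6.05 for Fibin, 0.18 to 0.28 for Timp4, 0.27 to 0.51 for Igfbp2, 0.20 to 0.39 for Luzp2, -0.53 to -0.42 for Cxcl14 and -0.67 to -0.58 for Scrg1. The values that left their counting interval follow, by setting, and the cause was not tested. Without the YFP filter, Opa1 cKO over CT was 0.51 for Igfbp2 and 0.39 for Luzp2, mt-low over mt-normal was 0.0595 for Igfbp2, and mt-normal Opa1 cKO over CT was -0.13 for Luzp2. For Cxcl14 these 3 ratios were -0.50, -0.38 and -0.21 with all variable genes used for clustering, and -0.50, -0.38 and -0.21 with log-normalization. With CPM over UMIs without mt- genes, Cxcl14 had -0.51 for Opa1 cKO over CT and, for mt-low over mt-normal, -0.53 beside 0.0466 for Timp4. Without the 5% of cells with most UMIs, Igfbp2 had -0.18 for mt-low over mt-normal. With the median of all genes taken off, Opa1 cKO over CT was 0.18 for Timp4, -0.53 for Cxcl14, 0.20 for Luzp2 and -0.67 for Scrg1. On the same scale mt-low over mt-normal turned direction for Timp4, at -0.11, and was -0.29 for Igfbp2, -0.69 for Cxcl14, 0.61 for Luzp2 and -1.16 for Scrg1, and mt-normal Opa1 cKO over CT was -0.0695 for Cxcl14. With mt-low set under 0.5%, mt-low over mt-normal was 0.18 for Igfbp2 and 0.96 for Luzp2. With mt-normal set from 4%, it was 3.72 for Fibin, -0.21 for Igfbp2, -0.57 for Cxcl14 and -1.06 for Scrg1, and mt-normal Opa1 cKO over CT was 0.64 for Igfbp2, -0.00937 for Cxcl14 and 0.10 for Scrg1. The Igfbp2 ratio of mt-low over mt-normal thus had no direction that held over the settings. Counting every gene with at least 1 UMI in each group, 15% of genes were past 2-fold for Opa1 cKO over CT and 11.4% for mt-low over mt-normal.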
